A study of Mus musculus with 20 samples.

Results

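Unannotated pairings of annotated splice sites are junction reads that join a known 5′ splice site (the donor, at the start of an intron) to a known 3′ splice site (the acceptor, at its end) in a combination that the annotation does not list. They were taken from the junction table as the rows whose ends are both annotated but not as a pair, with at least 100 reads summed over the 20 mice. The members were chosen by this annotation class and these measured read totals, with earlier results of these data known. The rule gave 4297 pairings out of 64212 unannotated pairings and 554616 junctions of any kind. A flag in the table separates 4177 pairings that skip annotated exons from 120 that skip none, and these are described separately. The read totals that chose the pairings were summed over every group, so totals are given here as a description and only the share of reads at the shared sites was compared.

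Bulk bone marrow RNA came from 20 recipient mice in 4 groups of 5, since each transgene was paired with each treatment. The groups were vehicle with U2AF1(WT), sudemycin D6 with U2AF1(WT), vehicle with U2AF1(S34F) and sudemycin D6 with U2AF1(S34F), called WT vehicle, WT sudemycin, S34F vehicle and S34F sudemycin below. All 20 mice had been transplanted with marrow pooled from transgenic donors carrying rtTA, the protein that switches on the transgene in the presence of doxycycline, and all ate doxycycline chow (625 ppm) for 7 days. Sudemycin D6, which targets the SF3B1 protein of the spliceosome, or its vehicle was infused through a jugular catheter on the last 5 of those days. The U2AF1(WT) transgene is also overexpressed, so WT mice are transgenic controls and not unmodified mice, and recipient stroma and any surviving recipient blood cells can contribute to the RNA.

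Most introns are removed after U2AF1 has bound the AG at the end of the intron and SF3B1 has bound the branch point upstream of it. When an internal exon's acceptor is passed over, the upstream donor is joined to the acceptor of a later exon, and the exon is missing from the transcript. The S34F substitution lies in a zinc finger of U2AF1 that contacts the RNA at this AG, and the base just before the AG (T or U, C, A or G) differs between acceptors that mutant and normal protein use well.

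For the pairings that the results turn on, the acceptor that was passed over is shown as its last 20 intron bases and the first 3 bases of the skipped exon, 5′ to 3′ on the gene's strand in mm9 (NCBI build 37). Capitals mark the base before the AG and the AG itself. The first 6 are acceptors with T before the AG, of exons that were skipped more in S34F mice.
*D15Ertd621e* (chr15:58274367-58274389, plus strand): ttacctatttgtggttaTAGcat
*Alpk1* (chr3:127388230-127388252, minus strand): attctccccttgtgtttTAGgca
*4930422G04Rik* (chr3:127290839-127290861, plus strand): catatcttcttcctgctTAGggc
*Cep70* (chr9:99164028-99164050, plus strand): gaattgtgtctgttaacTAGaag
*Itgam* (chr7:135259262-135259284, plus strand): ctccctcctttctgacaTAGttc
*Apol11b* (chr15:77468486-77468508, minus strand): attatttttctgataaaTAGtgg

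The next 4 acceptors, with C or A before the AG, belong to exons that were skipped less in S34F mice.
*Lsm14a* (chr7:35132999-35133021, minus strand): ctttttttttaacctttCAGaaa
*Celf2* (chr2:6529005-6529027, minus strand): tgtccccttgtttcccaCAGgct
*Clec4b2* (chr6:123150943-123150965, plus strand): atctccttcatcctccaAAGaaa
*Stfa1* (chr16:36280532-36280554, plus strand): ccttactttctcctcatAAGgtc

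The last set holds acceptors of exons whose skipping differed between sudemycin D6 and vehicle, and that of a 36-base exon of *Mbnl1* that was skipped more in S34F mice although C stands before its AG.
*Zfand3* (chr17:30197735-30197757, plus strand): tttttttttttttgcccCAGgtc
*Nt5c3* (chr6:56847821-56847843, minus strand): catcacctggggaaatcCAGaag
*Atxn1* (chr13:46051942-46051964, minus strand): cacttcctggaccttcaTAGaag
*Stk16* (chr1:75209688-75209710, plus strand): ctctggggacactgttcCAGgac
*Kif21b* (chr1:138063719-138063741, plus strand): taattttctgcccttccCAGgtc
*Ppp1r12a* (chr10:107690361-107690383, plus strand): tgctgcttatgatgctaTAGtac
*Chi3l3* (chr3:105967748-105967770, minus strand): ctctctttctctctttcTAGgtc
*Mbnl1* (chr3:60425325-60425347, plus strand): ttgcaatgcatgatgggCAGgct

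The 4177 exon-skipping pairings were short in reads and mostly simple in form. They held 0.164% of all junction reads, with a median of 196 reads each over the 20 mice and a highest total of 29673. Both sites lay in the same gene for 4015 of them, in 2552 genes. The sites lay in different genes for 156, and 6 had a site that matched no gene of the annotation. The span between the joined sites held 1 annotated exon in 3020 pairings (72.3%), 2 in 700, 3 in 237 and 4 or more in 218, up to 29 exons. In the other 2 pairings no annotated exon lay wholly inside the span. The genome had GT after the donor in 4144 and GC in 33, and AG before the acceptor in every one.

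A clean cassette exon, with both of its own splice sites annotated, was missing in 2832 of them. These exons had a median length of 108 bases (3 to 4119). Of the 2606 that were coding, 969 (37.2%) had a length that is a multiple of 3, so that skipping keeps the reading frame. The median span removed by an exon-skipping pairing was 5182 bases.

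The share of a pairing is the percentage of its reads among all reads at its donor and acceptor, counting its own reads at both sites. The median share of the exon-skipping pairings was 3.04% over the 20 mice. It was under 1% for 828 of them (19.8%) and over 50% for 104. Reads were seen in every mouse for 1334 (31.9%), and 64 had no read in at least 1 group (23 in WT vehicle, 27 in WT sudemycin, 18 in S34F vehicle and 18 in S34F sudemycin). The 120 pairings that skip no annotated exon join a donor and acceptor with nothing annotated between them, for example an early donor of one transcript with the next acceptor of another. They were used more heavily, with a median share of 14.5%. In 15 of them the share was over 50%, and their 10 most-read members held 52.8% of the reads of the class.

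At the edge of the rule, *Esyt1* and *Dgka* entered with 100 reads and *Rab21* and *Mthfd1l* stayed out with 99. Among pairings without a skipped exon, *Cd300lf* and a pairing of *1600010F14Rik* with *4930570N18Rik* entered with 102 reads, while *Cdyl* (98 reads) and *Wdsub1* (95 reads) stayed out.

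Depth was higher in S34F than in WT mice, with overlap. Junction reads per mouse were 34384214 to 54774504 (median 46796260) in WT vehicle, 44408843 to 53010135 (median 50959348) in WT sudemycin, 50136734 to 64813149 (median 56739447) in S34F vehicle and 49566969 to 59671324 (median 56577006) in S34F sudemycin mice. Its part in the genotype differences was not tested. Reads on the mouse *U2af1* gene were 35.8 to 39.9 CPM, gene counts scaled to the library total, in WT vehicle, 34 to 50.1 in WT sudemycin, 45.9 to 57.3 in S34F vehicle and 49.2 to 60.2 in S34F sudemycin mice. How reads of the transgene were counted is not given in the sources used here, so this row does not separate transgene from mouse RNA. *Xist*, the RNA that silences an X chromosome, was at 777 to 1632 CPM in WT mice and at 0.0188 to 0.137 in S34F mice, and Y-linked *Ddx3y* was at 0 in every WT mouse and at 38.9 to 80.9 in S34F mice. Genotype therefore cannot be told apart from this difference or from the donor line. The summed level of 8 neutrophil markers, none of them at 0, was 64079 to 72031 CPM in WT vehicle, 61305 to 89168 in WT sudemycin, 89423 to 124447 in S34F vehicle and 74476 to 111849 in S34F sudemycin mice. Summed markers of erythroid cells (166 to 845 CPM), monocytes and macrophages (1005 to 2327) and B cells (12.6 to 149) had no gene at 0 and overlapped between all groups. Those of megakaryocytes were lower with the drug, at medians of 49.2 and 28.1 CPM in WT and 38.7 and 23.2 in S34F mice, and WT vehicle (37.4 to 61.9) and S34F sudemycin mice (18.6 to 36.9) did not overlap. Their part in the drug differences was not tested. In bulk marrow, fewer cells of a type and less RNA per cell cannot be told apart, and the part of the neutrophil difference in the shares below was not tested.

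Added up over all exon-skipping pairings, usage was nearly level across the groups. The summed share was 1.46% ± 0.0574 (SD, n = 5) in WT vehicle, 1.51% ± 0.159 in WT sudemycin, 1.38% ± 0.0738 in S34F vehicle and 1.5% ± 0.0747 in S34F sudemycin mice. Between the S34F groups it was 0.119 percentage points higher with sudemycin D6 and the mice did not overlap. Without the 10 most-read pairings that difference was 0.0744 points, the drug difference in WT mice went from 0.0530 to 0.00667 and that of the joint contrast from 0.0448 to 0.00424. With all pairings the other 4 differences lay between -0.0742 and 0.0530 points and the groups overlapped. Averaging the pairings with equal weight, which lets rarely read sites count as much as busy ones, gave 6.97% ± 0.0831 in WT vehicle and 7.29% ± 0.127 in S34F vehicle mice, without overlap. By this measure the 2 S34F groups overlapped, with sudemycin D6 higher by 0.229 points. WT vehicle and S34F sudemycin mice did not overlap (6.97% and 7.52%).

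Pairings that skip no exon had a summed share of 13.4% ± 0.735 in WT vehicle, 13.2% ± 0.621 in WT sudemycin, 13.5% ± 0.447 in S34F vehicle and 12.1% ± 0.454 in S34F sudemycin mice. The S34F groups did not overlap, with sudemycin D6 lower by 1.44 points, but without the 10 most-read pairings the difference was -0.314 points. With equal weight for each pairing the S34F groups overlapped and the difference was -0.597 points. No test was made of these sums, because they are scores over chosen members.

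**Figure D1:**
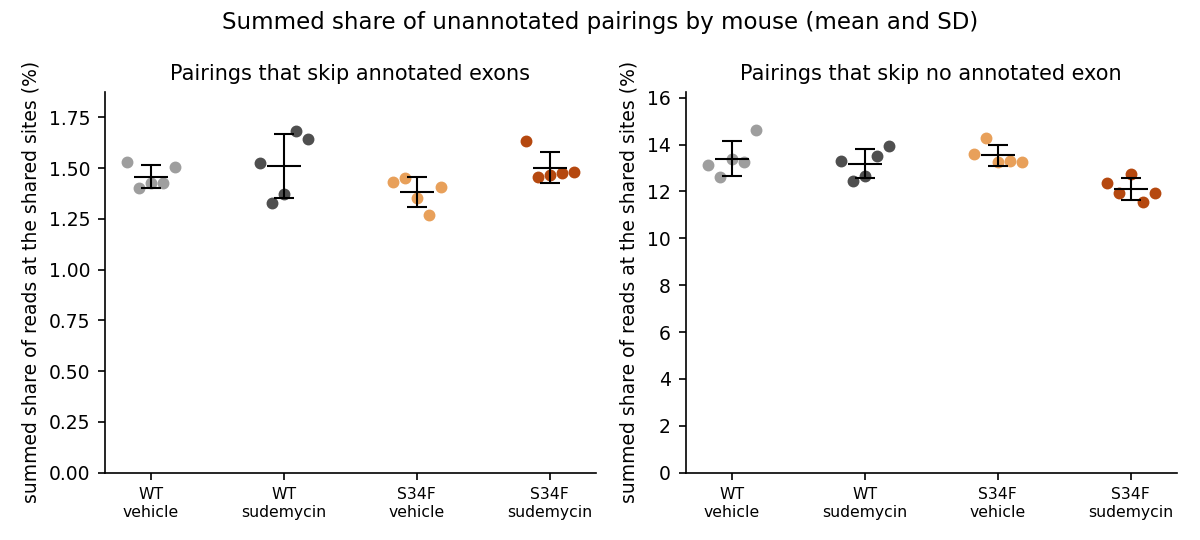
Summed share of reads at the shared sites (%, y axis) by group (x axis) for pairings that skip annotated exons (left) and that skip none (right). Each point is 1 mouse and the bars are the mean ± SD of 5 mice. Only the 2 S34F groups do not overlap, upward on the left (1.38% to 1.5%) and downward on the right (13.5% to 12.1%).

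Level sums hid opposite movements between the genotypes. Under vehicle, 148 pairings were used more in S34F than in WT mice and 97 less (FDR under 10% by Benjamini-Hochberg over 59884 junctions, in edgeR's quasi-likelihood test). The 245 pairings called were 5.74% of the 4268 tested, against 4.65% of all junctions tested, which had passed the same minimum of 100 reads. The excess lay on the higher side, where the background was 2.32%, against 3.47% of the pairings. On the lower side the shares were 2.33% and 2.27%. The median size of the change among the pairings called was 5.35 percentage points, and the median difference over all pairings tested was -0.0113 points. The 5 mice of each genotype did not overlap in 189 of the 245. Overlap was not counted over all junctions, so this number shows nothing particular to these pairings. limma called 133 and DESeq2 367. On autosomes alone, without the X and Y chromosomes that differ between the genotypes, 239 were called. Junctions that share a site share reads, so they are not independent. A sparse pairing could reach 100 reads through the group where it was high. These counts, and the adjusted p of any sparse pairing named below, are therefore descriptions. The replicates are recipient mice, and the p-values measure the spread between them.

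Under sudemycin D6 the same contrast of genotypes called 139 pairings higher and 67 lower in S34F mice. These 206 were 4.83% of the pairings tested, against 4.04% of all junctions, with a background of 2.00% for higher, where the pairings gave 3.26%, and 2.05% for lower, where they gave 1.57%. limma called 117 and DESeq2 340, and on autosomes alone 205 were called. With an estimated dispersion edgeR called 55 higher and 48 lower, so the excess on the higher side depends on that setting. No mouse is shared between the genotype comparisons. They had 95 pairings in common, 38.8% of those called under vehicle and 46.1% of those called under sudemycin D6, and all 95 moved in the same direction. Calls in common were not counted over all junctions, so this is not shown to be particular to the pairings. In the 95, *D15Ertd621e*, *Alpk1*, *Itgam*, *Apol11b* and *4930422G04Rik* were higher in S34F mice and *Lsm14a* and *Celf2* lower.

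The direction of the genotype difference followed the base before the AG of the exon that was skipped. Of the 2813 tested pairings that skip a clean cassette exon, 1157 had T there, 1510 had C, 136 had A and 10 had G. Under vehicle, 82 of the pairings over a T acceptor (7.09%) were higher in S34F mice and 2 were lower. Over C acceptors 12 were higher and 52 lower (3.44%), and over A acceptors 1 was higher and 12 were lower (8.82%). Thus 82 of the 96 pairings called higher (85.4%) skipped an exon with T before its AG, where 41.1% of those tested had T. Pairings against this division were the 12 over C acceptors called higher, *Adpgk* and *Atp9b* (T, lower) and a second pairing of *Atp9b* (A, higher), and *Ptcd3* (G) was higher. These 3 genes are named after their values were seen.

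The same division was seen under sudemycin D6, where 83 pairings over T acceptors (7.17%) were higher and 2 lower (*Mppe1* and *Atp9b*, named after their values were seen), 10 over C acceptors were higher and 36 lower, and 8 over A acceptors were lower. The median log2 odds ratio of S34F to WT was 0.61 under vehicle and 0.54 under sudemycin D6 for T acceptors, -0.39 and -0.28 for C acceptors, and -0.77 and -0.57 for A acceptors. It was above 0 in 850 of the 1157 pairings over T acceptors under vehicle (73.5%), in 476 of 1510 over C acceptors (31.5%) and in 27 of 136 over A acceptors (19.9%).

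In sums over the mice the genotypes separated by acceptor. Over T acceptors the summed share was 1.69% ± 0.123 (SD, n = 5) in WT vehicle, 1.73% ± 0.185 in WT sudemycin, 2.23% ± 0.140 in S34F vehicle and 2.32% ± 0.101 in S34F sudemycin mice. The lowest S34F mouse (2.05%) was above the highest WT mouse (1.94%). Over C acceptors it was 1.23% ± 0.0616, 1.27% ± 0.154, 0.927% ± 0.0782 and 1.02% ± 0.0715 in the same order. Every S34F vehicle mouse (0.822% to 1.03%) was below every WT vehicle mouse (1.13% to 1.30%), while the sudemycin groups overlapped slightly, with S34F mice reaching 1.14% and WT mice starting at 1.11%. Over A acceptors it was 1.12% ± 0.0665, 1.01% ± 0.108, 0.703% ± 0.0679 and 0.744% ± 0.0716. The groups under vehicle did not overlap, and under sudemycin D6 the lowest WT mouse was at 0.817% and the highest S34F mouse at 0.841%. The base pattern for cassette exons in these mice was known from earlier work on the same files, so it is a description here and no test was made of it.

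**Figure D2:**
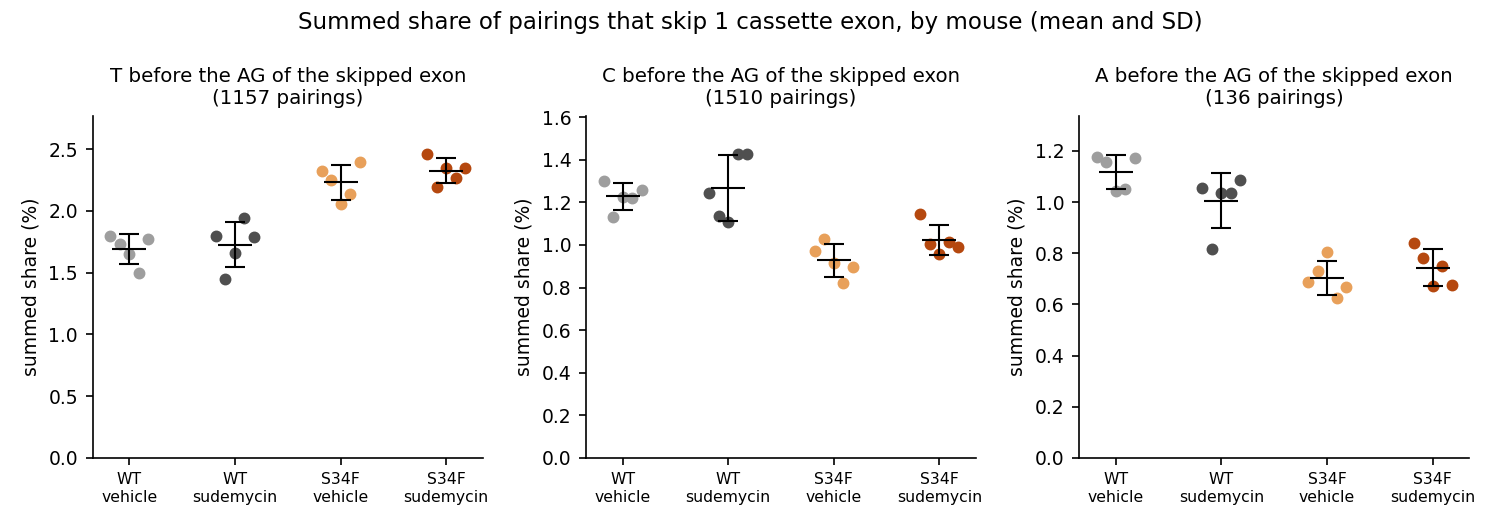
Summed share (%, y axis) by group (x axis) of pairings that skip 1 clean cassette exon, with T (left), C (middle) or A (right) before the AG of that exon. Points are mice and bars the mean ± SD of 5. S34F mice lie above WT mice over T acceptors (2.05% to 2.46% against 1.45% to 1.94%) and mostly below them over C and A acceptors.

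**Figure D3:**
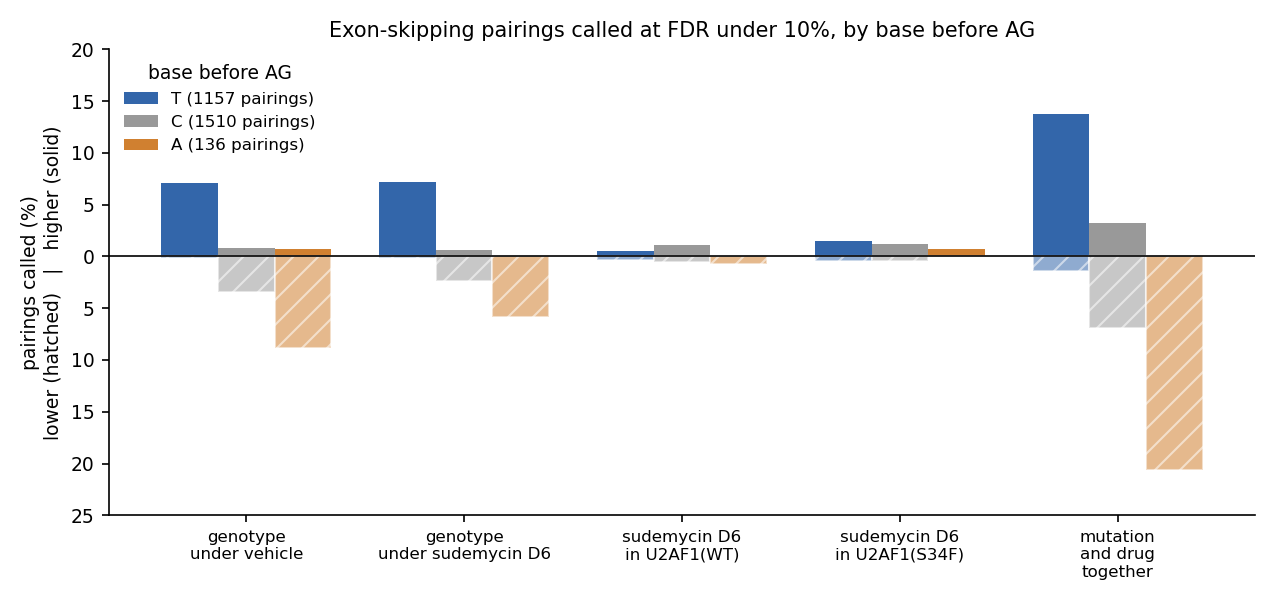
Percentage of tested pairings (y axis) called higher or lower at FDR under 10% in each comparison (x axis), by the base before the AG of the skipped exon. In the genotype comparisons T acceptors were mostly called higher (7.09% and 7.17%) and C and A acceptors mostly lower. The drug comparisons show no such split.

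Among coding exons skipped more in S34F mice, lengths that keep the frame were commoner than among all pairings tested. They were 40 of 83 (48.2%) under vehicle and 45 of 84 (53.6%) under sudemycin D6, where all pairings tested gave 36.9%. Among those skipped less they were 12 of 61 (19.7%) and 9 of 40 (22.5%). Coding exons skipped more with the drug gave 9 of 17 (52.9%) in WT and 14 of 29 (48.3%) in S34F mice. Those skipped less with the drug gave 5 of 13 (38.5%) and 9 of 11 (81.8%). The excess among exons skipped more was therefore not particular to the genotype comparisons. Under vehicle, pairings across 1, 2, 3 or at least 4 annotated exons were called at 5.74%, 5.73%, 3.39% and 10.1%, so the difference was not confined to single exons.

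The genotype difference was clear in *D15Ertd621e*, at a coding exon of 135 bases that is skipped. The share of skipping was 13.9%, 18.7%, 23.1%, 17.7% and 12.9% in WT vehicle and 10.2%, 28.7%, 14.5%, 16.4% and 17.4% in WT sudemycin mice. It was 42.3%, 38.1%, 35.6%, 41.9% and 40.8% in S34F vehicle and 41.5%, 41.2%, 42.8%, 42.8% and 45.2% in S34F sudemycin mice. All 10 S34F mice were above all 10 WT mice. In log2 odds ratio the difference was 1.68 ± 0.27 (SE) under vehicle (adjusted p = 0.00058, edgeR) and 1.79 ± 0.26 under sudemycin D6 (adjusted p = 0.00034). The exon, whose first and last 3 bases are in capitals, lies at chr15:58274387-58274521 on the plus strand of mm9 and is shown because its loss leaves the frame intact.
*D15Ertd621e* exon: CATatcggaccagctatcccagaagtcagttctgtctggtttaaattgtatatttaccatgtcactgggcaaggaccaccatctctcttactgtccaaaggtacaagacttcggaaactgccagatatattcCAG

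Skipping of a 77-base coding exon of *Alpk1*, the kinase that senses bacterial ADP-heptose, was rare in WT mice. The share was 0%, 7.25%, 0%, 3.05% and 10.4% in WT vehicle and 4.33%, 0%, 0%, 2.19% and 2.90% in WT sudemycin mice. It was 27.5%, 29.9%, 27.4%, 43.9% and 24.5% in S34F vehicle and 28.8%, 34.5%, 32.6%, 5.45% and 6.19% in S34F sudemycin mice. The genotypes did not overlap under either treatment, although 2 drug-treated S34F mice stayed close to the WT range. The log2 odds ratio was 2.99 ± 0.63 under vehicle (edgeR adjusted p = 0.0081) and 4.1 ± 0.86 under sudemycin D6 (adjusted p = 0.011). Reads on the *Alpk1* gene as a whole were lower in S34F mice, by a log2 fold change of -1.13 ± 0.13 under vehicle (edgeR adjusted p = 6.7e-05).

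In *Itgam*, which encodes the integrin CD11b of neutrophils and monocytes, the skipped coding exon has 108 bases. Its share was 0.959%, 0.149%, 0.429%, 0.567% and 0.350% in WT vehicle and 0.485%, 0.567%, 0.533%, 1.13% and 1.08% in WT sudemycin mice. It was 2.33%, 1.32%, 1.20%, 2.56% and 2.37% in S34F vehicle and 2.83%, 2.45%, 2.39%, 2.16% and 2.00% in S34F sudemycin mice. All 10 S34F mice were again above all 10 WT mice, at a level of a few percent. This gave log2 odds ratios of 2.13 ± 0.41 under vehicle (edgeR adjusted p = 0.0037) and 1.79 ± 0.28 under sudemycin D6 (adjusted p = 0.00067). A pairing across another exon of *Itgam* was also called under vehicle, at 1.19% in WT and 2.58% in S34F mice (edgeR adjusted p = 0.013).

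Further exons with T before their AG were skipped more in S34F mice. The share over a 197-base exon of *4930422G04Rik* averaged 0.460% and 1.60% in WT vehicle and WT sudemycin mice, with reads in only 1 mouse of each group, and 21.9% and 26.8% in the S34F groups, where every mouse was at 13% or above (edgeR adjusted p = 0.016 and 0.014). *Dzip3*, an E3 ubiquitin ligase, had 3 reads on its pairing over all WT vehicle mice (mean share 1.18%) and 70 over the S34F vehicle mice (35.4%, 19.3% to 56.1%, adjusted p = 0.017). Under sudemycin D6 the *Dzip3* groups overlapped. *Cep70*, a centrosomal protein, went from 15.5% in WT to 39.9% in S34F vehicle mice (log2 odds ratio 1.77 ± 0.51, adjusted p = 0.061). A noncoding exon of *2900076A07Rik* went from 47.3% to 78.3% under vehicle (adjusted p = 0.086) and from 51.3% to 84.5% under sudemycin D6 (adjusted p = 0.016). The calls of *Cep70* and *2900076A07Rik* under vehicle were lost when single mice were left out.

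*Apol11b* belongs to the apolipoprotein L family, whose members are close copies, so its reads are uncertain. The share over its 124-base exon was 55.4%, 69.3%, 44.8%, 56.5% and 44.4% in WT vehicle and 30.8%, 32.8%, 33.3%, 10.4% and 26.7% in WT sudemycin mice. In S34F mice it was 80.3%, 86.2%, 90.7%, 84.2% and 89.6% with vehicle and 67.4%, 74.7%, 72.9%, 80.2% and 78.6% with sudemycin D6. The genotypes were far apart under both treatments, with log2 odds ratios of 2.22 ± 0.42 and 3.04 ± 0.40 (edgeR adjusted p = 0.0031 and 8.2e-05).

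*Itpr1*, a calcium channel of the endoplasmic reticulum, lost 2 exons more often in S34F mice under sudemycin D6, at 19.6% ± 5.27 (SD, n = 5) in WT and 42.2% ± 5.94 in S34F mice (log2 odds ratio 1.53 ± 0.35, edgeR adjusted p = 0.020). With vehicle the means were 24.2% and 40% and the mice overlapped.

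In the other direction, *Lsm14a*, a component of processing bodies where mRNA is stored and decapped, kept a 57-base exon more often in S34F mice. The share of skipping was 32.5%, 29.0%, 25.8%, 22.7% and 21.4% in WT vehicle and 33.8%, 32.7%, 41.1%, 35.2% and 34.5% in WT sudemycin mice. It was 9.22%, 13.4%, 11.4%, 14.2% and 11.8% in S34F vehicle and 15.7%, 15%, 8.41%, 10.2% and 14.6% in S34F sudemycin mice. All 10 S34F mice were below all 10 WT mice. The log2 odds ratio was -1.34 ± 0.24 under vehicle (edgeR adjusted p = 0.0016) and -1.92 ± 0.21 under sudemycin D6 (adjusted p = 6.3e-06), at a C acceptor in a part of the gene annotated as noncoding. Reads on the *Lsm14a* gene differed by a log2 fold change of -0.33 ± 0.09 under vehicle (adjusted p = 0.012).

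*Clec4b2*, a C-type lectin receptor with close family members, has A before the AG of its 155-base exon. Its skipping share averaged 50.1% in WT vehicle (37.9% to 67.1%) and 21.5% in S34F vehicle mice (13.7% to 29.4%), with a log2 odds ratio of -1.88 ± 0.42 (edgeR adjusted p = 0.013). Under sudemycin D6 the means were 40.6% and 27.7% and the mice overlapped. The gene itself was higher in S34F vehicle mice by a log2 fold change of 1.82 ± 0.32 (adjusted p = 0.0020). *Stfa1*, a stefin A cysteine protease inhibitor with near-identical copies, also has an A acceptor. It had 35 reads over the WT vehicle mice (shares 1.87% to 6.33%) and none in S34F vehicle mice. With sudemycin D6 the shares were 4.32% to 15.4% in WT mice, and S34F mice had 2 and 4 reads in single mice. The *Stfa1* gene was itself lower in S34F mice, at means of 4.91 and 0.697 CPM with vehicle (log2 fold change -2.71 ± 1.06, edgeR adjusted p = 0.085) and 14.9 and 0.630 CPM with sudemycin D6 (adjusted p = 0.0051).

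Pairings that join sites of different genes gave large differences that cannot be placed with certainty, because their genes are close copies in a row. The pairing of *Mndal* with *Ifi204*, interferon-inducible HIN-200 genes, fell from a mean share of 26.8% in WT to 1.25% in S34F vehicle mice and from 26.3% to 0.269% under sudemycin D6 (edgeR adjusted p = 7.2e-07 and 0.0012). The pairing of *Ugt1a6b* with *Ugt1a6a*, which encode glucuronosyltransferases, was at 47.6%, 15%, 14.9% and 2.89% in WT vehicle, WT sudemycin, S34F vehicle and S34F sudemycin mice. *Zfp429* joined to *Zfp456*, zinc finger genes, rose from 22.2% to 59.6% under sudemycin D6 (adjusted p = 0.064), a call lost without some single mice.

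**Figure D4:**
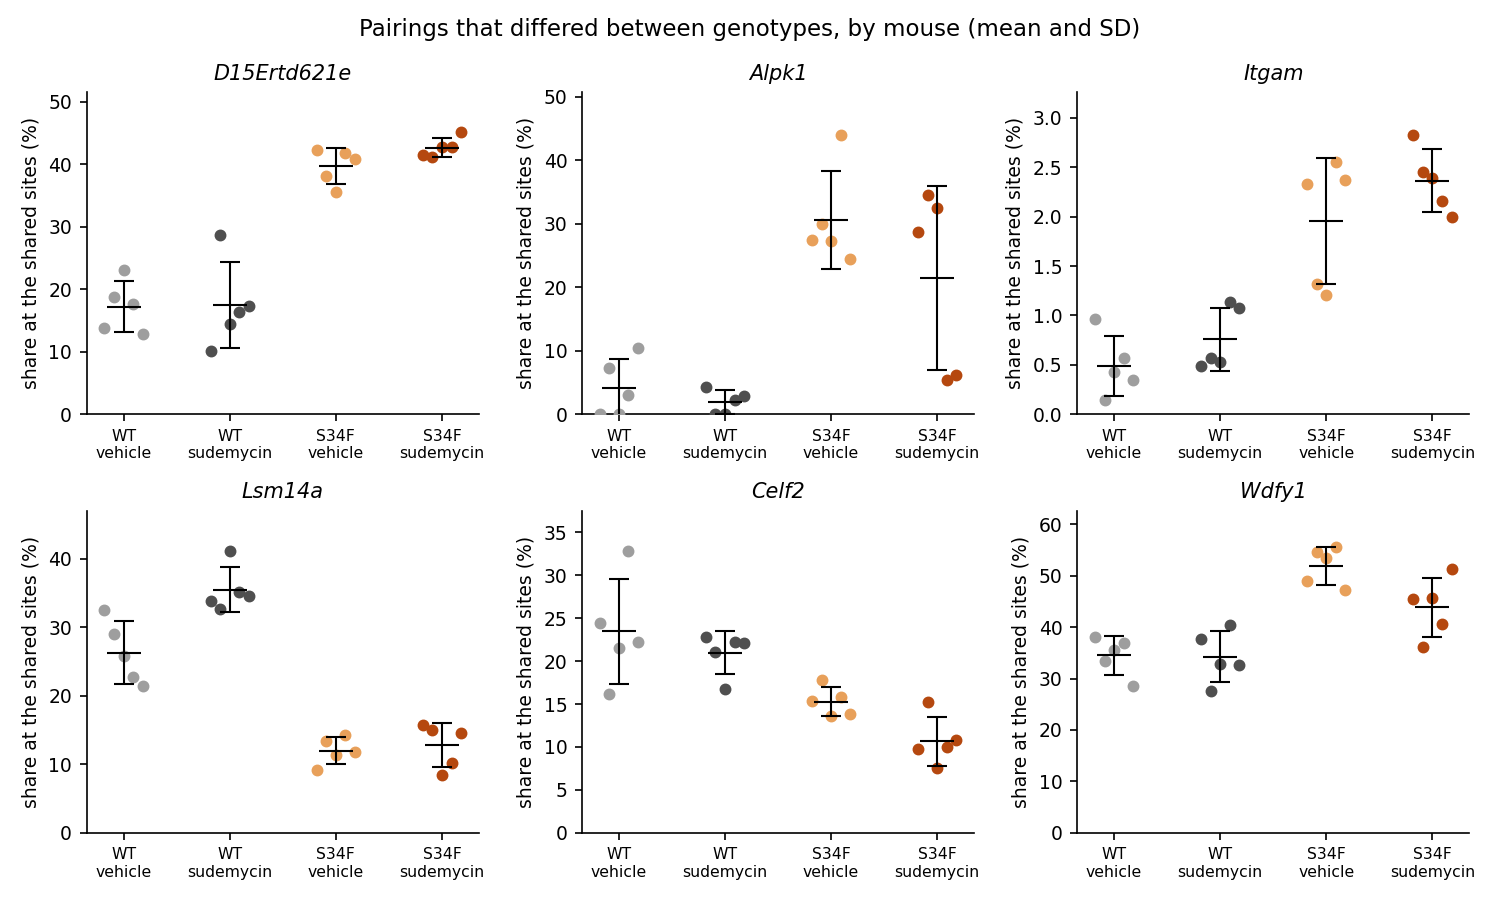
Share of reads at the shared sites (%, y axis) by group (x axis) for the pairings of *D15Ertd621e*, *Alpk1*, *Itgam*, *Lsm14a*, *Celf2* and *Wdfy1*. Points are mice, bars the mean ± SD of 5, and error bars are cut at 0. *D15Ertd621e* and *Itgam* are higher and *Lsm14a* lower in all S34F mice than in all WT mice.

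RNA-binding proteins that regulate splicing were among the genes with unannotated pairings, 50 of them in 31 of 82 listed splicing factor genes. Under vehicle 2 were called higher and 3 lower in S34F mice, and under sudemycin D6 3 higher and 2 lower. These are 5 of 50 each time, where 4.65% and 4.04% of all junctions tested were called. The median difference over the 50 was -0.239 and -0.124 points, against -0.0113 and 0.0182 over all pairings tested. Neither drug comparison called any of the 50 (edgeR; 7 and 8 had an unadjusted p under 0.05, DESeq2 called 1 and 0, and limma 0 in both).

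*Mbnl1*, whose protein controls developmental changes in splicing, held 2 of these pairings that moved in opposite directions. Its 36-base coding exon was skipped in 9.79%, 9.24%, 12.9%, 9.49% and 12.6% of reads in WT vehicle and 12.9%, 11.9%, 13.6%, 15% and 21.3% in WT sudemycin mice. The shares were 20.7%, 17.3%, 12.9%, 18.8% and 17% in S34F vehicle and 27.2%, 25.6%, 21.8%, 22.3% and 17.3% in S34F sudemycin mice. The S34F mice were higher under both treatments, with an overlap under sudemycin D6. In log2 odds ratio this was 0.81 ± 0.20 under vehicle (edgeR adjusted p = 0.023), 0.84 ± 0.19 under sudemycin D6 (adjusted p = 0.015) and 1.32 ± 0.19 between WT vehicle and S34F sudemycin mice (adjusted p = 7.6e-05). The exon, at chr3:60425345-60425380 on the plus strand, is printed because C stands before its AG while it moved with the T group.
*Mbnl1* exon: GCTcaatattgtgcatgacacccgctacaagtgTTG

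The other *Mbnl1* pairing, from 60277095 to 60332678 on chromosome 3, is near the start of the gene and was one of the most-read, with 10331 reads. It averaged 50.7% in WT and 42.9% in S34F vehicle mice (adjusted p = 0.083), and 56.9% and 42.9% under sudemycin D6 (log2 odds ratio -0.78 ± 0.14, adjusted p = 0.0040). With reads at the acceptor alone as the comparison, that difference under sudemycin D6 was 0.15 (adjusted p = 0.82), so the direction rests on the donor.

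*Celf2*, an RNA-binding protein that acts on alternative exons and mRNA stability, was the clearest splicing factor on the lower side. The share over its 80-base coding exon was 24.5%, 16.2%, 21.6%, 32.9% and 22.2% in WT vehicle and 22.9%, 21.1%, 16.7%, 22.2% and 22.1% in WT sudemycin mice. It was 15.4%, 17.8%, 13.6%, 15.8% and 13.8% in S34F vehicle and 9.78%, 15.2%, 7.49%, 9.97% and 10.8% in S34F sudemycin mice. The groups overlapped under vehicle (log2 odds ratio -0.76 ± 0.21, edgeR adjusted p = 0.056) and did not under sudemycin D6 (-1.14 ± 0.19, adjusted p = 0.0011). The other splicing factor pairings called were low, with means under 6% in both groups. *Srsf11* was higher under vehicle, *Rbm39* lower under vehicle, and *Srpk2* and *Hnrnpm* higher under sudemycin D6.

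Genes of neutrophil granules and maturation, which dominate marrow RNA, held 82 pairings in 30 of 41 listed genes. Under vehicle 6 were higher and 7 lower in S34F mice, and under sudemycin D6 5 were higher and 3 lower, 13 and 8 of 82 against 4.65% and 4.04% of all junctions tested. The medians over the list were near 0 (-0.00835 and 0.000735 points). *Prtn3*, the granule protease proteinase 3, was higher under both treatments (2.05% to 3.52%, edgeR adjusted p = 0.043, and 1.80% to 3.83%, adjusted p = 0.0013). *Lyz2*, lysozyme, was lower under both at a very low level (0.156% to 0.0731% and 0.160% to 0.0671%). *Ltf*, lactoferrin, was lower under vehicle in both of its called pairings. Where 1.26% of all junctions in WT and 1.38% in S34F mice were called for the drug, each drug comparison called 3 of the 82 pairings. They were both *Chi3l3* pairings described below, higher in each genotype, and *Itgb2l*, an integrin chain, lower in WT (4.14% to 1.25%, adjusted p = 0.031) or *Csf3r* lower in S34F mice.

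Among 24 pairings in 10 of 39 genes that recur as drivers of myeloid neoplasms, 2 were higher and 2 lower in S34F mice under vehicle, and 1 was lower under sudemycin D6, 4 and 1 of 24 against the same 4.65% and 4.04% of all junctions. The median differences over the 24 were -0.355 and -0.213 points. *Csf3r*, the receptor for the neutrophil growth factor G-CSF, held 3 of the pairings called and stands in the neutrophil list as well. A pairing across 3 exons was at 3.01%, 2.33%, 2.42%, 3.09% and 2.21% in WT vehicle and 0.735%, 0.934%, 0.743%, 0.743% and 0.530% in S34F vehicle mice, without overlap (log2 odds ratio -1.91 ± 0.31, edgeR adjusted p = 0.00061). A pairing across 1 of those exons averaged 2.77% and 1.15% under vehicle and 4.01% and 1.47% under sudemycin D6 (adjusted p = 0.019 and 0.0050). Another, at a T acceptor, went the other way under vehicle, from 4.68% to 8.89% (adjusted p = 0.013). *Cbl*, the E3 ligase that turns off growth factor receptors, lost 2 exons in 8.14% of reads in WT vehicle and 16.1% in S34F vehicle mice (log2 odds ratio 1.14 ± 0.25, adjusted p = 0.010).

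The remaining lists held few pairings and fewer calls. Over all junctions tested, 4.65% were called between genotypes under vehicle, 4.04% under sudemycin D6 and 1.38% for the drug in S34F mice. The 33 pairings in genes whose symbols start like ribosomal proteins gave 2 calls between the genotypes under sudemycin D6, *Rps24* (0.00563% to 0.164%) and *Rps14* (0.0177% to 0.265%), both higher in S34F mice. B cell genes held 8 pairings with *Btk*, a B cell receptor kinase, called under sudemycin D6 (0.112% to 1.37%), and *Ikzf1*, the Ikaros transcription factor, called for the drug in S34F mice (2.68% to 5.22%). Erythroid genes held 2 with *Add1*, a membrane skeleton protein, called under vehicle (0.0731% to 1.56%). Of 15 pairings in monocyte and macrophage genes, 5 in megakaryocyte genes, and 1 each in nonsense-mediated decay and T and NK cell genes, edgeR called none between the genotypes. In these 4 lists 2 results had an unadjusted p under 0.05, DESeq2 called 1 and limma 0.

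Fewer pairings differed between drug and vehicle than between genotypes. In WT mice 38 were higher and 21 lower with the drug, and these 59 were 1.38% of the pairings tested against 1.26% of all junctions. In S34F mice 53 were higher and 16 lower, and these 69 were 1.62% against 1.38% of all junctions. On the higher side the backgrounds were 0.625% in WT and 0.653% in S34F mice, where the pairings gave 0.890% and 1.24%. On the lower side they were 0.636% and 0.730%, where the pairings gave 0.492% and 0.375%. The median size of the change among pairings called was 5.88 points in WT and 3.86 points in S34F mice. The mice did not overlap in 49 of 59 and 59 of 69, and again overlap was not counted over all junctions. The drug comparisons share no mouse and had 25 pairings in common, 42.4% of those called in WT and 36.2% of those called in S34F mice, all in the same direction. Here too the calls in common were not counted over all junctions. limma called 15 in WT and 8 in S34F mice, and DESeq2 176 and 105.

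The drug calls did not divide by the base before the AG. In WT mice 6 pairings over T acceptors were higher and 4 lower, and 16 over C acceptors were higher and 8 lower. In S34F mice the counts were 17 and 5 over T and 18 and 7 over C acceptors. The T acceptors called lower were in *Il18rap*, *Ppp1r12a*, *Itgb2l* and *Clec4a2* in WT and in *Ppp1r12a*, *Csf3r*, *Arl6ip1*, *Larp4b* and *Ddx60* in S34F mice, named after their values were seen. The median log2 odds ratio was -0.05 for T acceptors in both genotypes, and 0.00 in WT and 0.11 in S34F mice for C acceptors. The clean cassette exons skipped more with the drug had a wide span between the joined sites, with a median of 12799.5 bases for the 22 in WT and 13057 for the 36 in S34F mice, against 4038 over the 2813 tested.

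*Zfand3*, an AN1-type zinc finger protein, had the largest difference in WT mice among pairings within 1 gene that were called and did not overlap. Its 41-base coding exon was skipped in 10%, 19.7%, 15.2%, 21.2% and 28.7% of reads in WT vehicle and 46.4%, 39.0%, 41.5%, 31.7% and 36.4% in WT sudemycin mice. In S34F mice the shares were 26.4%, 19.0%, 18.6%, 28.6% and 19.9% with vehicle and 35.1%, 39.6%, 34%, 26.7% and 37.8% with the drug. WT groups did not overlap, and in S34F mice only the lowest drug-treated mouse fell among the vehicle values. The log2 odds ratio was 1.41 ± 0.30 in WT (edgeR adjusted p = 0.014) and 0.89 ± 0.23 in S34F mice (adjusted p = 0.068). The exon lies at chr17:30197755-30197795 on the plus strand of mm9, and is shown with those of *Kif21b* and *Chi3l3* below it because all 3 are short exons skipped more with the drug (first and last 3 bases in capitals).
*Zfand3* exon: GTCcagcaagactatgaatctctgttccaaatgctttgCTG
*Kif21b* exon (chr1:138063739-138063777, plus strand): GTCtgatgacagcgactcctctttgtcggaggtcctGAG
*Chi3l3* exon (chr3:105967721-105967750, minus strand): GTCtggcaattcttctgaacgtacagcTGG

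*Nt5c3*, the pyrimidine 5′-nucleotidase of red cells, was higher with the drug in both genotypes. The share over its 55-base noncoding exon was 3.54%, 3.83%, 0%, 0% and 6.84% in WT vehicle and 14.4%, 24.3%, 8.46%, 14.4% and 23.2% in WT sudemycin mice. It was 4.12%, 11.2%, 6.93%, 6.77% and 5.34% in S34F vehicle and 17.6%, 20.4%, 15.1%, 17.6% and 16.1% in S34F sudemycin mice. Drug-treated mice were above vehicle-treated mice of the same genotype without overlap. As a log2 odds ratio this was 2.15 ± 0.53 in WT (edgeR adjusted p = 0.043) and 1.52 ± 0.24 in S34F mice (adjusted p = 0.0017).

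*Atxn1*, the polyglutamine protein of spinocerebellar ataxia and a transcriptional repressor, changed over a 121-base noncoding exon inside a span of 112358 bases. The share was 0%, 9.14%, 3.95%, 0% and 1.91% in WT vehicle and 6.25%, 11.6%, 18.3%, 30.8% and 16.7% in WT sudemycin mice. It was 5.03%, 4.27%, 6.47%, 11.1% and 8.82% in S34F vehicle and 20.3%, 33.3%, 28.6%, 24.6% and 24.1% in S34F sudemycin mice. The WT groups overlapped by 1 mouse and the S34F groups not at all. In log2 odds ratio the change was 2.67 ± 0.72 in WT (edgeR adjusted p = 0.084) and 2.15 ± 0.36 in S34F mice (adjusted p = 0.0030).

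*Stk16*, a small kinase of the Golgi, was skipped at a 96-base coding exon. Its shares were 7.35%, 8.92%, 10%, 5.38% and 6.94% in WT vehicle and 20.2%, 12.4%, 12%, 22.6% and 23.9% in WT sudemycin mice. They were 5.25%, 5.84%, 3.01%, 4.46% and 6.67% in S34F vehicle and 19.7%, 12.1%, 8.90%, 16.4% and 12.9% in S34F sudemycin mice. Neither genotype showed any overlap, with log2 odds ratios of 1.41 ± 0.37 (edgeR adjusted p = 0.071) and 1.58 ± 0.33 (adjusted p = 0.020).

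Other pairings higher with the drug were already common with vehicle. *Kif21b*, a kinesin motor, went from 61.7% ± 5.19 (SD, n = 5) to 73.0% ± 3.23 in WT mice over its 39-base exon (log2 odds ratio 0.77 ± 0.18, edgeR adjusted p = 0.031). In S34F mice it was at 62.9% and 69.8%, which was not called. *Gm9733*, a gene with close copies, went from 18.1% to 32.2% in WT (adjusted p = 0.0076) and from 26.3% to 37.4% in S34F mice (adjusted p = 0.025). *Phf3*, a PHD finger protein that binds RNA polymerase II, went from 7.95% to 21.5% in WT mice (adjusted p = 0.039). *Cmah*, the hydroxylase that makes N-glycolylneuraminic acid, went from 22.7% to 31.3% in S34F mice over 2 exons (adjusted p = 0.065).

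The pairing with the most reads of all (29673) was in *Chi3l3*, which encodes the chitinase-like protein Ym1 of neutrophils and macrophages. It skipped a 30-base exon in 0.730%, 0.998%, 0.722%, 0.526% and 0.976% of reads in WT vehicle and 3.19%, 2.53%, 4.37%, 4.12% and 2.71% in WT sudemycin mice. In S34F mice it was 1.71%, 1.52%, 1.45%, 1.91% and 2.16% with vehicle and 3.87%, 3.14%, 4.65%, 2.49% and 3.82% with the drug. It was higher with the drug without overlap in WT (log2 odds ratio 2.12 ± 0.25, edgeR adjusted p = 0.0056) and in S34F mice (1.07 ± 0.20, adjusted p = 0.050). It was also higher in S34F than in WT mice under vehicle (1.16 ± 0.16, adjusted p = 0.00021). A second *Chi3l3* pairing, which shares a site with it and spans 2 annotated exons, gave nearly the same shares (0.796%, 3.38%, 1.75% and 3.56% as group means). *Chi3l3* has close copies, so both are uncertain.

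A pairing lower with the drug was that of *Ppp1r12a*, the targeting subunit of myosin phosphatase. Its 171-base coding exon was skipped in 71.7%, 63.0%, 64.1%, 57.0% and 68.7% of reads in WT vehicle and 62.6%, 53.7%, 51.4%, 53.4% and 57.3% in WT sudemycin mice. The shares were 65.4%, 66.3%, 63.8%, 58.3% and 58.1% in S34F vehicle and 51.6%, 48.3%, 49.0%, 49.1% and 50% in S34F sudemycin mice. The S34F groups did not overlap and the WT groups did. As a log2 odds ratio the change was -0.62 ± 0.16 in WT (edgeR adjusted p = 0.073) and -0.74 ± 0.11 in S34F mice (adjusted p = 0.0014).

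*Mgea5*, the enzyme that removes O-GlcNAc, went from 36.5% ± 3.70 to 25.2% ± 4.49 in S34F mice over an 86-base exon (SD, n = 5, log2 odds ratio -0.79 ± 0.17, edgeR adjusted p = 0.020). *Nhsl2* on the X chromosome went from 35.6% to 23.7% in WT mice over 2 exons (adjusted p = 0.091). *A630001G21Rik* had 1 read in WT sudemycin mice, with shares of 8.70% to 21.7% in WT vehicle mice (adjusted p = 0.0050). *Ddx60*, an interferon-induced helicase, had 127 reads on its pairing in all. They lay in 1 of the 5 S34F sudemycin mice and in none of the WT sudemycin mice, with shares of 4.07% to 14.2% in S34F vehicle mice (adjusted p = 0.078). Such a sparse pairing could pass the read minimum through the group where it was high, so this adjusted p is a description. The *Ddx60* gene was lower with the drug in S34F mice by a log2 fold change of -1.01 ± 0.14 (adjusted p = 0.0022). *Csf3r* at its T acceptor went from 8.89% to 4.67% in S34F mice (adjusted p = 0.020), and *Cbl* from 16.1% to 9.88% with overlap of the mice (adjusted p = 0.070). Both pairings were also called between genotypes under vehicle, a comparison that shares these S34F vehicle mice.

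*Gpr141*, an orphan G protein-coupled receptor of myeloid cells, differed in 4 of the 5 pairwise comparisons at a pairing across 2 exons. The shares were 27.0%, 30.6%, 21.4%, 23.0% and 29.7% in WT vehicle and 29.6%, 29.1%, 34%, 31.5% and 33.3% in WT sudemycin mice. They were 44.2%, 38.7%, 40.1%, 45.0% and 41.2% in S34F vehicle and 53.3%, 50.3%, 56.3%, 49.9% and 52.0% in S34F sudemycin mice. The groups rose in this order, and only the WT groups overlapped. For genotype the log2 odds ratio was 0.97 ± 0.14 under vehicle (edgeR adjusted p = 0.00017) and 1.26 ± 0.12 under sudemycin D6 (adjusted p = 3.8e-07). That of the drug in S34F mice was 0.60 ± 0.10 (adjusted p = 0.0038).

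A single pairing was called in all 5 pairwise comparisons, that of *AB124611* over a 38-base exon with a C acceptor, and it is named after its values were seen. Its shares were 5.10%, 5.55%, 6.97%, 5.56% and 5.96% in WT vehicle and 3.78%, 2.33%, 3.02%, 2.29% and 1.52% in WT sudemycin mice. They were 1.70%, 3.04%, 2.13%, 2.87% and 1.79% in S34F vehicle and 0.869%, 1.19%, 0.733%, 1.03% and 0.771% in S34F sudemycin mice. It was lower in S34F than in WT mice and lower with the drug, with log2 odds ratios of -1.35 ± 0.23 and -1.54 ± 0.35 for genotype (edgeR adjusted p = 0.0011 and 0.019) and -1.16 ± 0.26 and -1.35 ± 0.31 for the drug in WT and S34F mice (adjusted p = 0.020 and 0.038). The comparisons share groups of mice, so they are not independent.

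**Figure D5:**
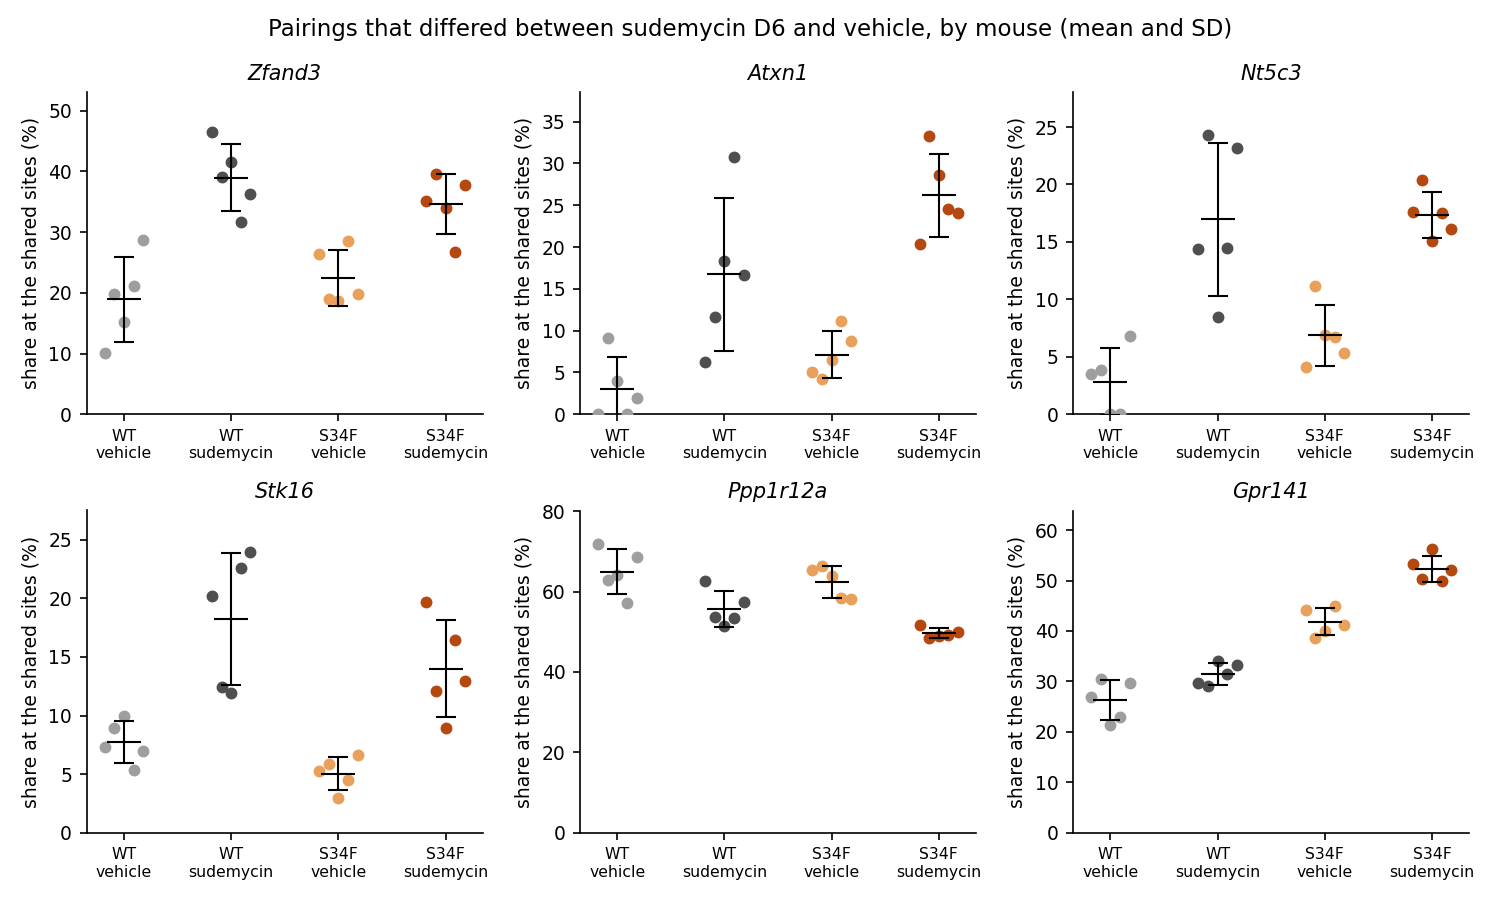
Share of reads at the shared sites (%, y axis) by group (x axis) for the pairings of *Zfand3*, *Atxn1*, *Nt5c3*, *Stk16*, *Ppp1r12a* and *Gpr141*. Points are mice, bars the mean ± SD of 5, and error bars are cut at 0. Drug-treated groups are higher in the first 4 and lower in *Ppp1r12a*, and *Gpr141* is higher in S34F mice and highest with the drug.

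Between WT vehicle and S34F sudemycin mice, which differ in both factors, 317 pairings were higher and 215 lower. These 532 were 12.5% of the pairings tested against 9.0% of all junctions, with backgrounds of 4.45% for higher and 4.55% for lower. The mice did not overlap in 351 of the 532, a count that was not made over all junctions. Over T acceptors 159 were higher (13.7%) and 16 lower, over C acceptors 48 were higher and 105 lower, and over A acceptors 28 were lower (20.6%). This comparison shares its WT vehicle mice with 2 of the comparisons above and its S34F sudemycin mice with the other 2.

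Pairings named from this contrast included *Ccbl2*, a kynurenine aminotransferase, at a mean of 6.92% in WT vehicle and 44.1% in S34F sudemycin mice (log2 odds ratio 2.64 ± 0.73, edgeR adjusted p = 0.033). The WT sudemycin and S34F vehicle mice lay at 35.2% and 23.5%. *Yeats2*, a reader of acylated histones, fell from 33.8% to 4.66% (adjusted p = 0.0064) with 8.10% and 11% in the other groups. *Celsr3*, an atypical cadherin, fell from 74.5% to 48.8% (adjusted p = 0.074). *Syne1*, the nuclear envelope protein nesprin, skipped a 156-base exon in most reads (20625 in all) and went from 88.9% to 84.0% (log2 odds ratio -0.68 ± 0.15, adjusted p = 0.0056). *Fcgr4*, an Fc receptor of monocytes with a 21-base skipped exon, was the 1 call among monocyte and macrophage genes (2.26% to 5.96%, adjusted p = 0.069). *App* and *Arap3*, also among the most-read, were called in none of the 5 comparisons.

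The interaction of genotype and drug called none of the 4268 pairings by edgeR, against 0.00334% of all junctions, although 185 had an unadjusted p under 0.05. limma called 0, and DESeq2 called 4, in *Abca13*, *Chaf1a*, *Cbx5* and *Btk*. A drug effect called in one genotype and not in the other is therefore not shown to differ between them.

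Among the 115 tested pairings that skip no exon, 3 were called between the genotypes under vehicle, 4 under sudemycin D6, 1 for the drug in WT mice and 0 for the drug in S34F mice, where 7 had an unadjusted p under 0.05 and DESeq2 and limma also called 0. The first 3 counts are 2.61%, 3.48% and 0.870% of the 115, below the 4.65%, 4.04% and 1.26% called over all junctions. The joint contrast of WT vehicle and S34F sudemycin mice went the other way, with 13 called. These were 11.3% of the 115, above the 9.0% called over all junctions. For 4 of the 115 pairings the joined sequence is printed, since the join itself is what the annotation lacks. It is given as the last 15 exon bases before the donor in lower case and the first 15 after the acceptor in capitals.
*Wdfy1* (intron chr1:79718843-79721220, minus strand): tcaagggacatgaagGAATTTCACGTTTCT
*Klrb1f* (intron chr6:129003275-129003809, plus strand): ggactgaactaacagACCTTGGGCAGAAGG
*Slc35c2* (intron chr2:165109103-165111981, minus strand): gcctgacagactgagCAGTAGCGCTGGGGA
*Slfn4* (intron chr11:82989415-82989573, plus strand): gaaagatgcttctgtAAACAGATCCTTCTA

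*Wdfy1*, an endosomal FYVE domain protein, used its join in 38.1%, 33.4%, 35.6%, 36.8% and 28.6% of reads in WT vehicle and 37.6%, 27.6%, 32.8%, 40.5% and 32.6% in WT sudemycin mice. The shares were 48.9%, 54.6%, 53.4%, 55.6% and 47.3% in S34F vehicle and 45.5%, 36.2%, 45.7%, 40.5% and 51.3% in S34F sudemycin mice. Only the vehicle groups were apart, with a log2 odds ratio of 1.06 ± 0.18 (edgeR adjusted p = 0.0013). *Gp49a*, a receptor of myeloid cells with a close copy, was higher in S34F mice under vehicle (5.37% to 10.6%, adjusted p = 0.021) and sudemycin D6 (5.44% to 9.70%, adjusted p = 0.066). *Klrb1f*, a C-type lectin of NK cells with close relatives, went from 22.8% to 46.4% under sudemycin D6 (adjusted p = 0.090).

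*Slc35c2*, a nucleotide sugar transporter, went the other way under sudemycin D6, from 47.4% to 28.4% (log2 odds ratio -1.16 ± 0.31, edgeR adjusted p = 0.045), and *Lig3*, a DNA ligase, from 49.3% to 26% (adjusted p = 0.093). The *Lig3* mice overlapped, and this gene is named after its values were seen. *Cept1*, an enzyme of phospholipid synthesis, went from 28.7% to 12.2% under vehicle (adjusted p = 0.079). The mice overlapped there, and this comparison of *Cept1* is given after its values were seen. *Slfn4*, a Schlafen family gene of myeloid cells and the most-read of these pairings (12434 reads), was at 50.7%, 48.3%, 44.8% and 41.8% in WT vehicle, WT sudemycin, S34F vehicle and S34F sudemycin mice, a difference called only between the first and last of these (-0.53 ± 0.12, adjusted p = 0.011). *Fez2* was called in the same contrast (1.76% to 22.5%, adjusted p = 0.046). *Phf20l1*, *Mctp1* and *Mll3*, also among the most-read, were called in none of the 5 comparisons.

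Some of the calls above lie close to the threshold. Leaving out 1 mouse at a time ended the call at least once for 20 of the 65 results given by the naming rule, those of *2900076A07Rik*, *Cep70* and *Add1* between genotypes under vehicle, *Zfp429* with *Zfp456*, *Gp49a*, *Klrb1f*, *Slc35c2*, *Btk* and *Rps14* under sudemycin D6, *Nt5c3*, *Phf3*, *Kif21b* and *Nhsl2* for the drug in WT mice, *Ddx60*, *Cmah* and *Ikzf1* in S34F mice, and *Celsr3*, *Fez2*, *Fcgr4* and *Rps6kb1* in the joint contrast. The size of the difference held in some of these fits and moved in others. *Ddx60* had a log2 odds ratio of -6.28 without S34F sudemycin replicate 9 (-3.73 with all mice). *Fcgr4* had 1.07 without WT vehicle replicate 4 (1.39 with all mice), and *2900076A07Rik* had 1.51 to 2.23 in the fits that lost the call. *Btk* had a log2 odds ratio of 3.16 to 3.57 in the 9 fits that lost the call (3.47 with all mice), *Add1* 3.25 to 3.88 in 7 (3.81) and *Cmah* 0.61 to 0.67 in 8 (0.66). No direction changed in any of the 650 fits.

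A change in share was not always joined by a change in the gene's reads. Of the genes named for a comparison with both sites in 1 gene, edgeR called the gene itself in 6 of 12 between genotypes under vehicle (39.5% of all genes tested were called), 6 of 16 under sudemycin D6 (36.8%), 1 of 7 for the drug in WT mice (3.07%), 2 of 9 for the drug in S34F mice (10.8%) and 7 of 14 in the joint contrast (50.2%). *D15Ertd621e* and *Wdfy1*, for example, were not called at the gene level under vehicle, with log2 fold changes of 0.12 ± 0.09 and -0.07 ± 0.11.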

How the data were processed

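Ribosomal RNA-depleted, stranded libraries of total bone marrow RNA from 20 mice were sequenced as 126-base pairs. Per the submitters' processing notes the reads were aligned with TopHat2 (version 2.0.8) to mm9, and SAMtools is also named. Both tables used here were deposited as raw counts made by the authors, one of reads per splice junction and the other of reads per gene, with no normalization, and the counting programs are not given in the sources used here. Junction reads were between 34384214 and 64813149 per mouse.

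Members were rows whose donor and acceptor are annotated but not as a pair, with at least 100 reads over the 20 mice. The flag for skipped exons holds only 0 or 1, so the number of exons between the sites was counted from the GENCODE M1 annotation of mm9. The share was 2 times the reads of the junction over that plus the other reads at its donor and at its acceptor, in percent. Each comparison was tested with edgeR 4.0.16 (glmQLFit and glmQLFTest, robust, dispersion 0, R 4.3.3) on own against other reads with a term for each mouse, over all 59884 junctions with at least 100 own and 100 other reads, adjusted by the Benjamini-Hochberg method, and called at FDR under 10%. Gene counts were tested with edgeR after TMM scaling. limma 3.58.1, DESeq2 1.42.0, other thresholds, the donor or acceptor alone and leaving out each mouse were tried as alternatives, and the fit was tested on simulated data.

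Named were, per comparison, up to 8 exon-skipping and 4 other called pairings with the largest difference and no overlap of mice (1 per gene), the 6 most-read of each class, 2 on each side of the threshold and up to 3 called per gene list by p. Pairings of different genes or of families with close copies are uncertain. The members and lists were chosen with earlier results of these data known. Some single results of the rule are not reported here.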

Additional observations from a re-analysis of the deposited data

Results flagged for a closer look

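In a group of 5 mice, a value was noted when the gap between an extreme mouse and its nearest neighbour took up more than 0.71 of the whole range of the group (Dixon's limit). Of 275 groups tested, 24 groups of named pairings passed this limit, where chance gives about 1 in 20. The sums of the next paragraph were among the groups tested but are not counted in the 24. In each case the mouse stayed in the results, and no explanation was tested.

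For the summed share of exon-skipping pairings, S34F sudemycin replicate 2 was the highest (ratio 0.873). For the sum over exons with A before the AG, the lowest WT sudemycin mouse stood apart (0.808).

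Several of these groups hold reads in a single mouse, which gives a ratio of 1. They were *Dzip3* in WT vehicle replicate 2 (5.88%), *4930422G04Rik* in WT vehicle replicate 2 (2.30%) and WT sudemycin replicate 10 (8%), *Ugt1a6b* with *Ugt1a6a* in S34F sudemycin replicate 6 (14.4%), *Mndal* with *Ifi204* in the same mouse (1.34%), *A630001G21Rik* in WT sudemycin replicate 6 (0.803%), *Ddx60* in S34F sudemycin replicate 9 (3.66%), *Fez2* in WT vehicle replicate 4 (8.79%) and WT sudemycin replicate 8 (18%), *Add1* in WT vehicle replicate 2 (0.366%), *Btk* in WT sudemycin replicate 10 (0.559%) and *Rps24* in WT sudemycin replicate 9 (0.0282%).

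Among genes with reads in more mice, *Alpk1* was highest in S34F vehicle replicate 7 (43.9%, ratio 0.721), *Zfp429* with *Zfp456* in WT vehicle replicate 4 (57.1%, 0.713), *Mgea5* in S34F vehicle replicate 3 (42.9%, 0.732) and *Cmah* in WT vehicle replicate 4 (28.8%, 0.783). *Celf2* was lowest in WT sudemycin replicate 9 (16.7%, 0.714). *Add1* was highest in S34F vehicle replicate 1 (3.84%, 0.785), *Btk* in S34F vehicle replicate 11 (1.49%, 0.857) and *Csf3r* in WT sudemycin replicate 9 (6.18%, 0.748). *Rps6kb1* was highest in WT vehicle replicate 4 (16.1%, 0.88) and in S34F sudemycin replicate 6 (4.56%, 0.838).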

How the results depend on the processing

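The number of pairings called moved with the model and threshold. In the order genotype under vehicle, genotype under sudemycin D6, drug in WT, drug in S34F and joint contrast, the counts of 245, 206, 59, 69 and 532 became 133, 122, 34, 44 and 325 at FDR under 5%, and 121, 103, 26, 36 and 268 with an estimated dispersion. Under sudemycin D6 that fit gave 55 higher and 48 lower where the main one gave 139 and 67. limma on the log odds gave 133, 117, 15 and 8 in the first 4. DESeq2 gave 340 for genotype under sudemycin D6, 176 and 105 for the drug, and 4 for the interaction, where edgeR called 0. A minimum of 400 reads left 147 and 131 for genotype and 247 in the joint contrast, with fewer junctions tested. In a model of all 20 mice, the drug in WT gave 156. The cause of these shifts was not tested.

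Leaving out 1 mouse gave 132 to 204, 119 to 197, 32 to 54, 44 to 59 and 346 to 521 calls, and 0 to 0 for the interaction. The count moved by over 1.5 times without S34F vehicle replicate 11 (132) for genotype under vehicle, without S34F sudemycin replicate 9 (119) or 12 (134) for genotype under sudemycin D6, and without WT vehicle replicate 1 (39), 3 (34) or 5 (32) or WT sudemycin replicate 10 (36) or 12 (39) for the drug in WT. It did so without S34F sudemycin replicate 2 (44) or 12 (45) for the drug in S34F, and without S34F sudemycin replicate 9 (346) in the joint contrast.

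Of 650 such fits for named pairings, 547 kept the call, 103 did not and 0 changed direction. The highest adjusted p (edgeR) was 0.31 for *2900076A07Rik* without WT vehicle replicate 5, 0.19 for *Add1* without S34F vehicle replicate 1, 0.16 for *Cep70* without S34F vehicle replicate 11, and 0.19 for *Zfp429* with *Zfp456*, 0.17 for *Btk*, 0.13 for *Rps14*, 0.19 for *Klrb1f* and 0.15 for *Slc35c2* without S34F sudemycin replicates 10, 6, 10, 2 and 9. It was 0.15 for *Gp49a* without WT sudemycin replicate 6, 0.27 for *Nhsl2* without WT vehicle replicate 1, 0.13 for *Nt5c3* and 0.12 for *Kif21b* without WT vehicle replicate 2, 0.12 for *Phf3* without WT sudemycin replicate 10, and 0.18, 0.20 and 0.11 for *Cmah*, *Ddx60* and *Ikzf1* without S34F sudemycin replicates 2, 6 and 2. In the joint contrast it was 0.16 for *Celsr3* and *Rps6kb1* without S34F sudemycin replicate 2, 0.11 for *Fez2* without replicate 12 and 0.13 for *Fcgr4* without WT vehicle replicate 5.

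Under the 594 fits with another setting, 496 kept the call, 97 lost it and 1 reversed, the *Mbnl1* pairing from 60277095 to 60332678 under sudemycin D6 (0.15 with acceptor reads alone). The losses were uneven. limma lost 29 of 65 and edgeR with an estimated dispersion 22 of 65, while 0 of 63 were lost on autosomes alone and 0 of 46 at 400 reads.

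Mice of the same replicate number did not deviate together, as the correlations of deviations ran from -0.0326 to 0.0113 and no mouse matched its own number best. With only 3 shared numbers under vehicle and 4 under sudemycin D6, these values cannot show whether the numbers pair the mice. With the replicate block and only mice of shared numbers, genotype gave 120 calls under vehicle and 176 under sudemycin D6, where the same mice without the block gave 41 and 120 (chosen after seeing the data). For the drug and joint contrasts no block could be fitted. No paired analysis was possible because there the drug groups share no number and the joint contrast shares only number 2.

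Summed differences for exon-skipping pairings became 0.215, 0.304 and 0.222 points for the drug in WT, in S34F and in the joint contrast at 400 reads. For pairings without a skipped exon they became 0.831 and -2.10 for genotype and 0.791 and -2.14 for the drug at 400 reads, and without the 10 most-read -0.289 for genotype under sudemycin D6, -0.314 for the drug in S34F and -0.317 in the joint contrast. Leaving out 1 mouse gave -0.0917 to -0.0461, -0.0539 to 0.0352, 0.00966 to 0.0987, 0.0859 to 0.137 and 0.0117 to 0.0634 for the first class in the 5 comparisons, and -0.0501 to 0.444, -1.25 to -0.876, -0.418 to 0.0799, -1.59 to -1.25 and -1.49 to -0.991 for the second. Gene-level calls among named genes were 1 for the drug in S34F with no filter on low counts, and 5 to 7, 5 to 7, 0 to 1, 1 to 3 and 6 to 10 without 1 mouse. The median pairing had 196 reads over 20 mice, which limits what single low shares can show.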

Other observations

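Other genes with pairings that skip no exon were called in the joint contrast of WT vehicle and S34F sudemycin mice, and are given as values chosen after they were seen. *Ywhae*, a 14-3-3 protein, went from 8.11% to 2.17% (edgeR adjusted p = 0.0032), *Snrk*, a kinase, from 41.5% to 29.6% (adjusted p = 0.083) and *Gm885* from 3.38% to 0.489% (adjusted p = 0.073). *Ly75*, the endocytic receptor DEC-205, went from 0.0533% to 3.83% (adjusted p = 0.0039) and *Parp10*, a mono-ADP-ribosyltransferase, from 5.05% to 26.7% (adjusted p = 0.064). Exons with G before the AG were few, at 10 tested pairings. *Ptcd3*, a mitochondrial ribosome protein, was skipped more in S34F mice under vehicle (2.82% to 21.5%, adjusted p = 0.050) and *Tmed8* under sudemycin D6 (0.611% to 10%, adjusted p = 0.030). The *Tmed8* pairing had only 127 reads in all, so its adjusted p is a description.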
